A study of Danio rerio with 2 samples.

Results

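The Twist and Prrx1 genes of the zebrafish caudal fin fold are described here over single cells. They are 6 genes, twist1a, twist1b, twist2, twist3, prrx1a and prrx1b, taken by name from the 15411 genes listed in the aggregated count matrix, of which 13181 had a count. Larvae had the fin fold amputated at 3 days post fertilization (dpf). About 150 regenerating (cut) and intact (uncut) fin folds were collected 24 h post amputation (hpA) and pooled into 1 library per condition. The methods do not say whether this number is for each condition. Both libraries come from caudal fin of larvae, and the single-cell section of the methods names no line and no sort of the cells. The methods give the AB strain and transgenic lines for the study's experiments in general. The cut library held 762 cells with 7033569 unique molecular identifiers (UMIs, each a captured transcript) after aggregation and a median of 7212 UMIs per cell. The uncut library held 878 cells with 10458222 UMIs and a median of 10476.5 per cell. No cell barcode was shared, with 0 in common. With 1 library per condition there is no test between conditions, and every interval below is a 95% interval for counting error only.

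Twist proteins are basic helix-loop-helix transcription factors. They bind DNA as dimers with broadly expressed E proteins (Tcf3, Tcf4 and Tcf12), and Id proteins, which have no DNA-binding region, hold E proteins back from such dimers. Prrx1 proteins are paired-related homeodomain factors. Both families are known from the mesenchyme of the vertebrate head and limb buds, where Twist1 in the mouse is needed for the cranial mesenchyme and limb outgrowth, and both can drive an epithelial-to-mesenchymal transition in cultured cells. Zebrafish carry 2 genes each for Twist1 and Prrx1, named a and b, and the additional genes twist2 and twist3. Such copies can share sequence, so that reads falling in a shared stretch can be lost or split between them, and the values of twist1a against twist1b and of prrx1a against prrx1b carry that uncertainty.

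The 6 genes were found almost entirely in cells with mesenchyme markers. The cells were grouped into 21 clusters without using the 6 genes or the division genes, and 3 of them (clusters 5, 12 and 13) met the naming rule for mesenchyme-like cells, 62 in the cut and 188 in the uncut library. Cluster 1, with 41 cut and 106 uncut cells, had 9 of the 11 mesenchyme markers raised but stayed without a name, since its 10 leading genes held the tenocyte marker tnmd and no mesenchyme marker. It had a low median of 3185 UMIs per cell and is given by number. Of the named clusters, 5 and 12 had 9 of the 11 mesenchyme markers raised and cluster 13 had 5. Over both libraries the 6 genes had 4135 UMIs in 431 cells, and 95.9% of these UMIs lay in the 4 clusters, 81.8% in the mesenchyme-like ones. By gene the share in the 4 clusters was 93.7% of 763 UMIs for twist1a, 95% of 480 for twist1b, 88.4% of 43 for twist2, 94.7% of 568 for twist3, 97.2% of 1322 for prrx1a and 97.3% of 959 for prrx1b. In the cut library 83.5% of the 176 twist1a UMIs lay there, against 96.8% of 587 in the uncut library.

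**Figure D1:**
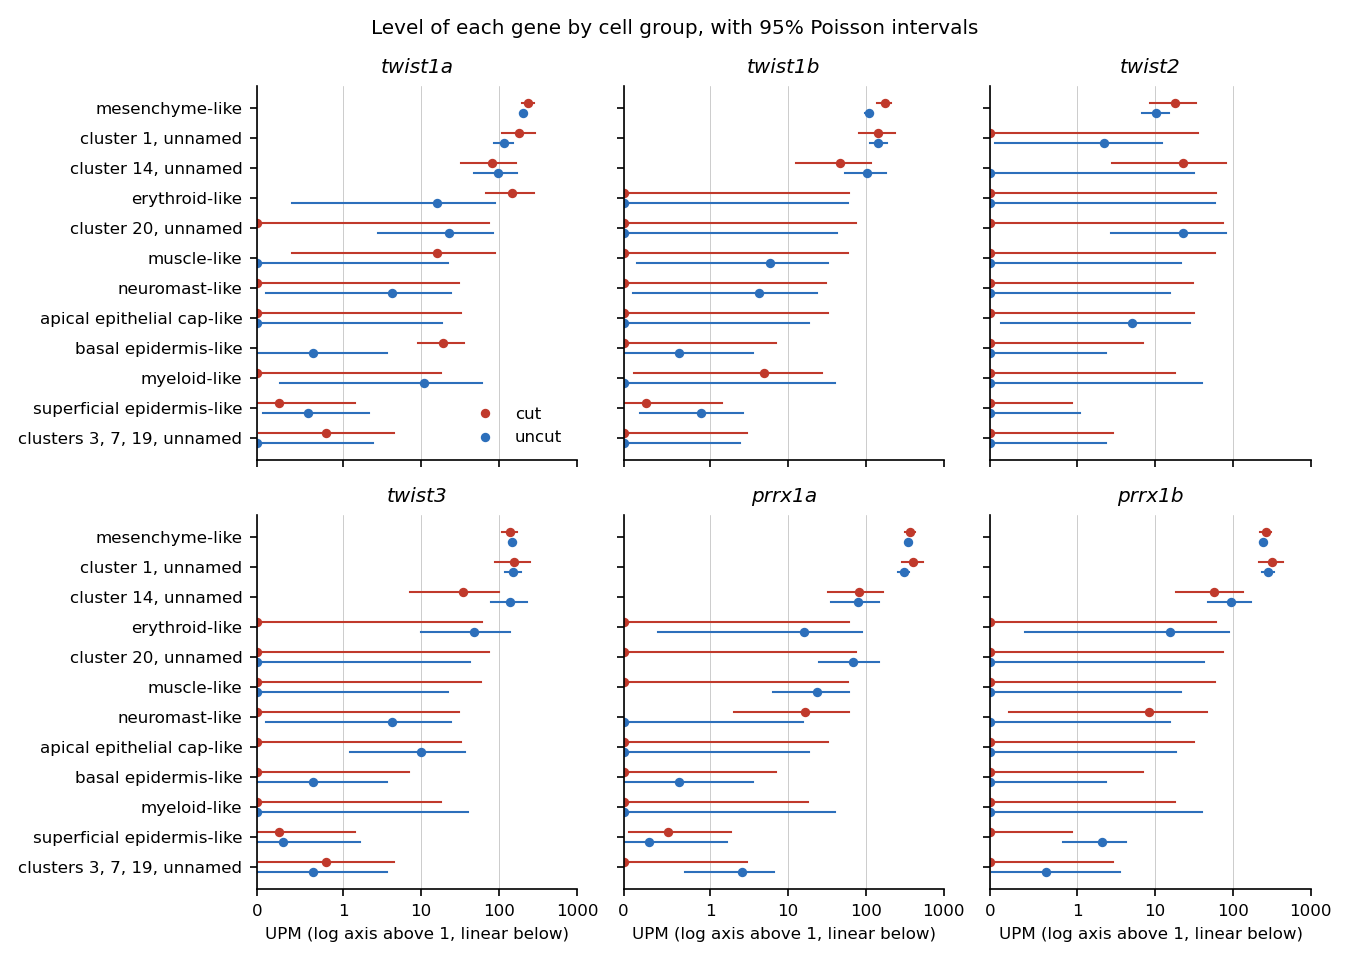
Level of each gene in UMIs per 1000000 UMIs of the group (UPM, horizontal axis, linear from 0 to 1 and logarithmic above) by cell group (rows), with points for the cut (red) and uncut (blue) library and lines for the 95% Poisson intervals. The mesenchyme-like rows of both libraries lie above 100 UPM for every gene but twist2, and the superficial epidermis-like rows lie at or below 2.08 UPM.

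Levels are given as UPM, the UMIs of a gene per 1000000 UMIs of a group of cells. In the mesenchyme-like cells cut prrx1a stood at 367 UPM (318 to 421) and uncut prrx1a at 350 (328 to 374), and UMIs of it were in 77.4% and 77.1% of the cells. Its copy prrx1b had 266 UPM (225 to 313) and 243 (224 to 263), in 59.7% and 65.4% of the cells. The intervals of the cut and uncut libraries overlapped for both.

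Of the Twist genes, twist1a had 233 UPM (195 to 278) in cut and 200 (183 to 218) in uncut mesenchyme-like cells. The gene twist3 had 137 UPM (108 to 171) and 147 (132 to 162), and twist1b had 173 (140 to 212) and 109 (96.4 to 122). twist1b is the one of the 6 whose intervals did not overlap between the libraries. UMIs of twist1a were in 45.2% of cut and 71.3% of uncut cells, which at 2000 UMIs per cell became 26.2% and 32.4%. The lowest of the Twist genes was twist2, with 10 UMIs in 7 of 62 cut and 27 UMIs in 21 of 188 uncut cells, 18.2 UPM (8.74 to 33.5) and 10.5 UPM (6.91 to 15.3). Counts at the 3′ end do not depend on transcript length as full-length reads do, but capture differs between genes, so the order of the genes is a description of UMIs only.

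Outside the 4 clusters, 1243 cells of both libraries together held 48 UMIs of twist1a (3.48 UPM), 24 of twist1b (1.74 UPM), 5 of twist2 (0.362 UPM), 30 of twist3 (2.17 UPM), 37 of prrx1a (2.68 UPM) and 26 of prrx1b (1.88 UPM). The log2 ratio of the mesenchyme-like level to this level was 7.04 (6.57 to 7.56) for prrx1a and 7.04 (6.47 to 7.66) for prrx1b. It was 6.11 (5.51 to 6.77) for twist1b, 6.06 (5.53 to 6.65) for twist3 and 5.89 (5.47 to 6.34) for twist1a, which is 59.3-fold. All 5 genes with at least 50 UMIs in this comparison were at least 2-fold higher in mesenchyme-like cells, where 21.5% of the 8343 genes measured to that minimum were, and 23.8% were at least 2-fold lower. The median log2 ratio of the members was 6.11, against 0.10 over all these genes.

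The few UMIs outside were not spread evenly. In superficial epidermis-like cells, 514 cells with a deeper median of 12535 UMIs, 3.11% of the cells had a UMI of any of the 6 genes, and after each cell was thinned to 2000 UMIs the share was 0.994%, against 78.3% in mesenchyme-like cells. That share, from an epithelial cell type, is read as background. Apical epithelial cap-like cells, the epithelium at the fin tip, had 0 UMIs of twist1a, twist1b, prrx1a and prrx1b in 36 cells, a count that allows at most 8.33% of cells with a UMI. The 1 UMI of twist2 and 2 UMIs of twist3 found there were in 1 uncut cell, which had UMIs of 6 mesenchyme markers. Basal epidermis-like cells held 11 UMIs of twist1a in 3 of 209 cells, 10 of them in 2 cells of the cut library, and at most 1 UMI of each other gene. Among 28 erythroid-like cells, 3 cells carried 10 UMIs of twist1a.

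Cluster 14, 53 cells without a name whose leading genes included the DNA synthesis genes dut, rrm2 and pcna, stood between the groups. It had 89.1 UPM of twist1a, 79.2 of twist1b, 94 of twist3, 79.2 of prrx1a and 79.2 of prrx1b, and 45.3% of its cells had a UMI of any of the 6. Of its 24 cells with a member, 12 had UMIs of at least 3 mesenchyme markers, and of its 29 cells without one, 2 did. Over all cells outside the 4 clusters, 33 of the 74 cells with a member had at least 3 mesenchyme markers, against 88 of the 1169 without, and 18 of the 25 cells with 2 or more members were in cluster 14.

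The members also sorted cells within the mesenchyme-like clusters. Of the 222 cells with a member, 219 had UMIs of at least 3 mesenchyme markers, and of the 28 without one, 9 did, although the median depth was higher in the latter (12820 against 11085 UMIs). In 24 of the 250 cells the UMIs of epidermis markers (basal and superficial) were as many as those of mesenchyme markers or more. These 24 cells, with a median of 13578.5 UMIs, carried 1 UMI of the 6 genes in all, a prrx1b UMI, and the other 226 cells carried 3383. Their median depth was above that of the 226, which was 11081 UMIs. Mesenchyme-like cells without a Twist or Prrx1 UMI were thus for the most part among the 24 cells of this division, which was made after the values were seen. The 24 are called cells with epidermis markers below, but not all were rich in them. The 2 such cut cells of cluster 5 had at most 812 UPM of basal and 981 UPM of superficial markers.

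Summed over all mesenchyme-like cells, markers of other cell types were low but not absent. The 8 basal epidermis markers summed to 2073 UPM in the cut and 2012 UPM in the uncut library and the 10 superficial ones to 1455 and 981 UPM, against 25202 and 32799 UPM for the 11 mesenchyme markers. Cluster 13 differed from this. Its cut cells had 6567 UPM of basal and 4382 of superficial markers, together more than their 7451 UPM of mesenchyme markers. Its uncut cells had 5206 and 2008 UPM against 9819. Of the 10 myeloid markers 9 were at 0 in the cut and 6 in the uncut library, and of the 6 erythroid markers 3 were at 0 in each. Neural crest, glia and pigment markers reached 62921 UPM in a single cut cell and notochord and cartilage markers 66827 UPM in a single uncut cell. Scrublet, which looks for profiles that mix cell types, called 0 mesenchyme-like cells doublets. Their part in the levels below was not tested, except where the cells with epidermis markers are left out.

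Levels differed between the clusters. Cluster 5 (33 cut and 101 uncut cells) was led by ccl25b, foxd2 and apln, cluster 12 (16 and 44 cells) by ecrg4a, hapln1a and tnmd, and cluster 13 (13 and 43 cells) by the division genes nusap1, mki67 and tpx2. In cluster 12 all 16 cut and all 44 uncut cells had a UMI of a member, with 1964 UPM (1696 to 2261) and 1593 UPM (1463 to 1732) of the 6 genes together. Cluster 5 had 1132 UPM (1012 to 1263) and 1156 UPM (1099 to 1214), and cluster 1 had 1202 UPM (1001 to 1432) and 1000 UPM (911 to 1097). Cluster 13 had 848 UPM (714 to 999) and 693 UPM (639 to 751), and members were found in 69.2% of its cut and 67.4% of its uncut cells. It also held the epidermis markers: 17 of its 56 cells were among the 24, and its basal epidermis markers had 6567 and 5206 UPM against 91.6 and 203 in cluster 12. Its cells with more mesenchyme than epidermis marker UMIs, 9 cut and 30 uncut, had 1211 UPM (1020 to 1427) and 1063 UPM (980 to 1152) of the 6 genes. Cluster 12 was above the other 3 in each library with no overlap of the intervals.

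**Figure D2:**
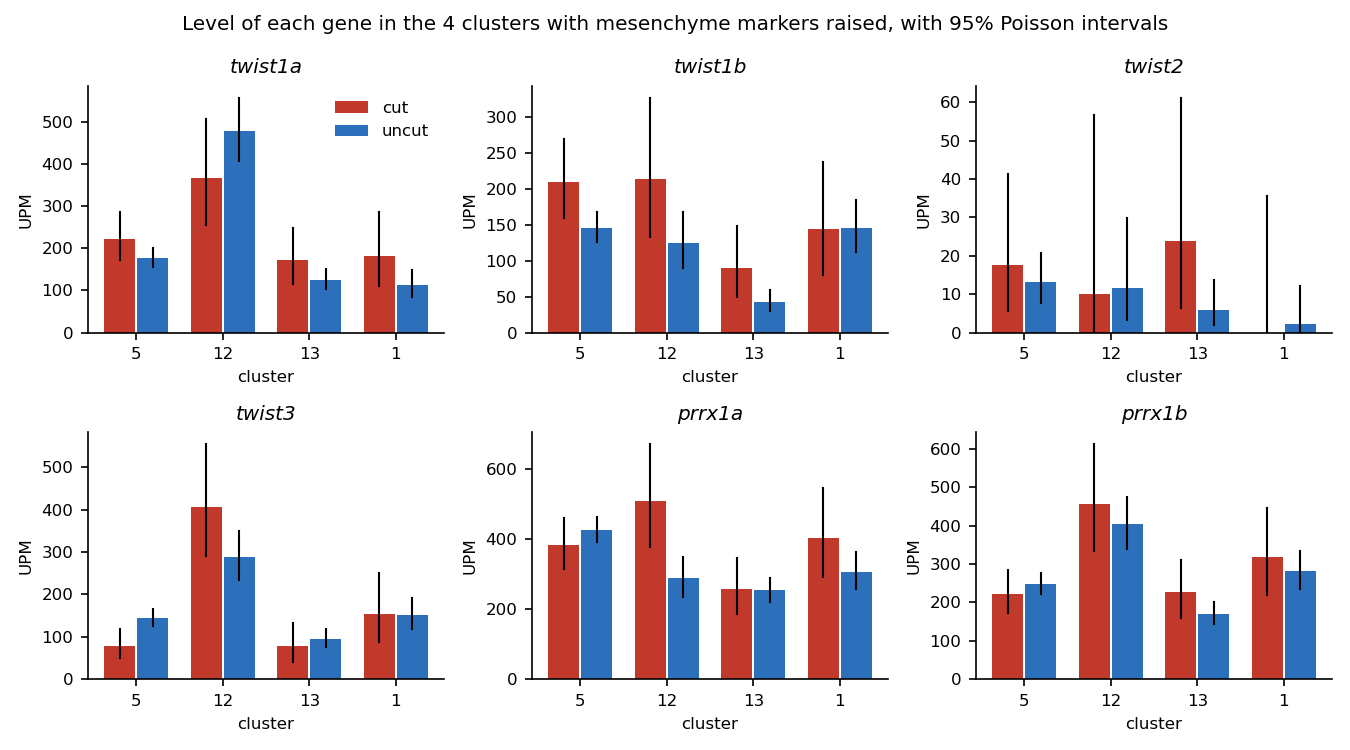
Level of each gene (vertical axis, UPM from 0) in clusters 5, 12, 13 and 1 (horizontal axis), with bars for the cut (red) and uncut (blue) library and black lines for the 95% Poisson intervals. In cluster 12 twist1a stood at 366 and 479 UPM and twist3 at 407 and 287 UPM, above cluster 5 in both libraries, while twist1b stood at 214 and 125 UPM beside 209 and 146 UPM in cluster 5.

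Set against cluster 5, which is the other large named cluster, cluster 12 held more twist3, a comparison chosen after the values were seen. The level of twist3 was 77.8 UPM in cluster 5 and 407 UPM in cluster 12 of the cut library, a log2 ratio of 2.39 (1.60 to 3.21), and 144 and 287 UPM in the uncut library, a log2 ratio of 0.99 (0.63 to 1.35). For twist1a the log2 ratio was 0.72 (0.08 to 1.33) among cut cells and 1.43 (1.14 to 1.72) among uncut cells, and for prrx1b it was 1.04 (0.45 to 1.61) and 0.70 (0.41 to 0.99). All 3 genes were thus higher in cluster 12 in both libraries. The cut values rest on few cells: of the 40 twist3 UMIs of cut cluster 12, 16 came from 1 cell, and its 36 twist1a UMIs came from 5 of the 16 cells. Of its 45 prrx1b UMIs, 17 came from 1 cell. For twist1b it was 0.03 (-0.76 to 0.77) and -0.23 (-0.74 to 0.26), with 0 inside both intervals. For prrx1a it was 0.41 (-0.10 to 0.91) and -0.57 (-0.89 to -0.26), with opposite signs. Of the 5 members with at least 50 UMIs, 2 (twist3 and prrx1b) were at least 2-fold higher in the cut library, where 15.9% of 734 genes were higher and 20% lower. In the uncut library 1 (twist1a) was, where 13% of 2522 genes were higher and 19.7% lower. These shares are near the background or rest on few genes, so that no more is read from the counts.

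Known fin fold transcription factors differed between the same clusters. In the uncut library msx1b, a homeobox gene of the fin fold and the fin blastema, had 293 UPM in cluster 12 and 19.7 in cluster 5. The posterior Hox genes hoxa13a and hoxa13b had 241 and 255 UPM in cluster 12 and 88.3 and 82.4 in cluster 5. The snail family genes went apart among uncut cells, with 75.5 UPM of snai1a in cluster 12 and 24.8 in cluster 5, and 17.4 and 94.1 UPM of snai2. The cluster 12 values rest on 26 and 6 UMIs. Cut cells of cluster 12 had more snai2, 81.4 UPM (35.1 to 160) from 8 UMIs, so that the contrast of snai2 is given for the uncut library only. Of 7 fin fold factors with enough UMIs 6 were at least 2-fold higher in cluster 12, where 13% of 2522 genes were. The exception was zic1 with 102 and 129 UPM. The mesenchyme markers were higher there too, 7 of 10 by at least 2-fold.

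Members were found together in the same cells. A UMI of any Twist and of any Prrx1 gene was present in 46 of 62 cut (74.2%, 61.5 to 84.5) and 147 of 188 uncut mesenchyme-like cells (78.2%, 71.6 to 83.9), where the product of the separate shares gives 41.1 and 131 cells. Among uncut cells with a Twist gene 91.3% had a Prrx1 gene, against 22.2% among those without, and the median depths of these cells were 12308 and 13288 UMIs. In the cut library the shares were 93.9% and 46.2%, at 8154 and 5252 UMIs. After thinning to 2000 UMIs, 27 of 61 cut and 76 of 188 uncut cells had both, against 22.9 and 65.9 from the product. The 24 cells with epidermis markers, which lack nearly all UMIs of both families, carried most of this excess. Without them 46 of 56 cut cells had both against 45.5 from the product, and 147 of 170 uncut cells against 144. At 2000 UMIs 27 of 55 cut cells had both against 25.3, and 76 of 170 uncut cells against 72.9. Among the remaining uncut cells 55.6% of those without a Twist gene had a Prrx1 gene, in place of 22.2%. Both shares rest on few cells, since most uncut cells had a Twist gene. With all UMIs most of the remaining cells had a Twist gene and most a Prrx1 gene, which left little room for an excess over the product. Those counts thus cannot show whether the families were found together beyond their shares. At 2000 UMIs, where fewer cells had both, the excess of any Twist with any Prrx1 gene was small. Single pairs could differ from this, and that of twist1b and prrx1b in uncut cells, given below, had a larger excess.

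**Figure D3:**
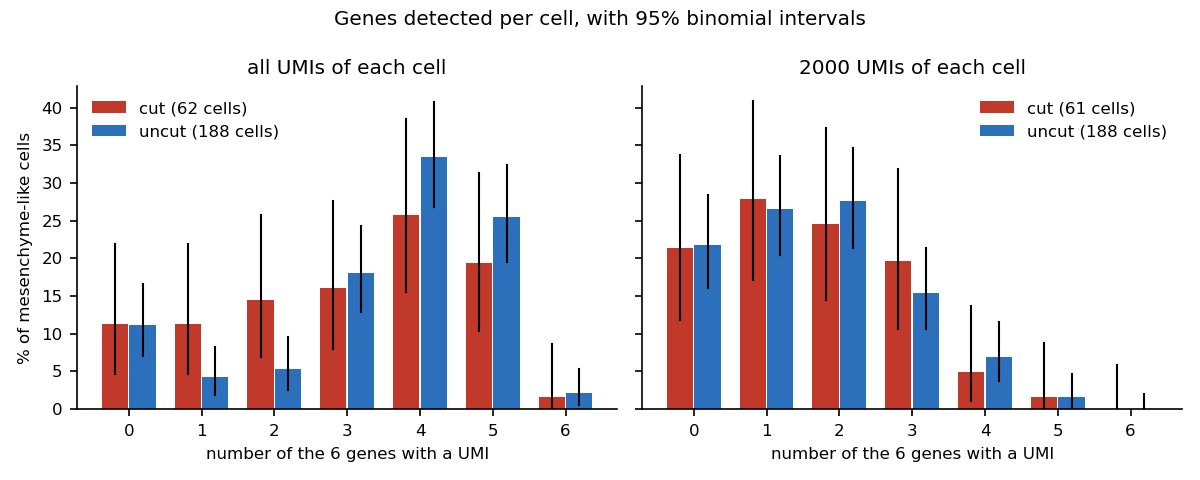
Share of mesenchyme-like cells (vertical axis, % of 62 or 61 cut and 188 uncut cells) by the number of the 6 genes with a UMI (horizontal axis), from all UMIs (left) and from 2000 UMIs per cell (right), with 95% binomial intervals. With all UMIs 4 genes was the most frequent number in both libraries, and with 2000 UMIs 1 or 2 genes was.

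Counted per cell, 62.9% of cut and 79.3% of uncut mesenchyme-like cells had UMIs of at least 3 of the 6 genes. With 2000 UMIs per cell the shares were 26.2% (15.8 to 39.1) and 23.9% (18 to 30.7), so that the order of the libraries from all UMIs did not hold at equal depth. All 6 genes were found in 1 cut and 4 uncut cells. Of the 15 pairs, 14 in the cut and 12 in the uncut library were in more cells than the product of their shares, and at 2000 UMIs 11 and 13 were. Without the cells with epidermis markers these counts were 13 and 10, and 10 and 11 at 2000 UMIs. The widest gap in the uncut library with all UMIs was that of prrx1a and prrx1b, with 115 uncut cells holding both against 94.9 from the product, and prrx1b was in 79.3% of cells with prrx1a and in 18.6% of those without. At 2000 UMIs 36 cells had both against 31.5, and the widest gap was that of twist1b and prrx1b, with 26 cells against 15.5. Without the cells with epidermis markers the product was 104 for prrx1a and prrx1b with all UMIs and 17.2 for twist1b and prrx1b at 2000 UMIs. Of the Twist pairs, twist1a and twist3 were together in 100 uncut cells against 85.5, and in 23 against 16.5 at 2000 UMIs, where the product without the cells with epidermis markers was 94.6 and 18.3. In the cut library this pair was in 17 cells against 13.5, and at 2000 UMIs in 3 against 3.15, with no excess. Cells of 1 library are not replicates, and these counts are given without a test.

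Mesenchyme-like cells in division had a lower level of the Twist genes, in UPM, than the others. Cells with UMIs of at least 3 of the 16 G2/M genes in the files were called cycling, 15 of 62 in the cut and 36 of 188 in the uncut library. Of these 51 cells 41 were in cluster 13. All 60 cells of cluster 12, which had the highest level of the 6 genes, were among the other cells, so that the ratios below also compare clusters. Cycling cells were deeper, with medians of 8332 UMIs against 7547 in other cut cells and 19154.5 against 11633.5 in uncut cells. A level in UPM is a share of all UMIs and not a count per cell. The 6 genes together had 145 UMIs in the 15 cycling and 510 in the 47 other cut cells. In the uncut library they had 513 in 36 and 2216 in 152 cells. Per cell the UMIs thus lay closer together than the levels in UPM. The 4 Twist genes together had 335 UPM in cycling and 669 in other cells of the cut library, a log2 ratio of -1.001 (-1.44 to -0.59). In the uncut library they had a log2 ratio of -1.11 (-1.34 to -0.89). The 2 Prrx1 genes together had log2 ratios of -0.52 (-0.89 to -0.17) and -0.68 (-0.87 to -0.50). By gene, twist1a had 125 UPM in cycling and 285 in other cut cells (log2 ratio -1.19, -1.93 to -0.52) and a log2 ratio of -0.97 (-1.32 to -0.64) in the uncut library. The ratios of twist1b were -0.74 and -1.56, of twist3 -1.32 and -0.99, of prrx1a -0.76 and -0.82 and of prrx1b -0.23 and -0.51. The interval of prrx1b in the cut library (-0.78 to 0.30) included 0, and those of the other members named here did not. Of the 5 members with at least 50 UMIs, 2 (twist1a and twist3) were at least 2-fold lower in cycling cut cells, where 12% of 1094 genes were lower and 10.3% higher, and 1 (twist1b) in cycling uncut cells, where 8.59% of 3759 genes were lower and 11.8% higher.

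Epidermis markers moved with this comparison. Basal epidermis markers had 5914 UPM in cycling and 253 in other cut cells, and 5781 and 426 UPM in uncut cells. The epithelial cadherin cdh1 had 198 and 24.2 UPM in cut and 106 and 9.93 in uncut cells. Of the 24 cells with as many epidermis as mesenchyme marker UMIs or more, 12 were cycling. Without these 24 cells, 13 cycling and 43 other cut cells and 26 and 144 uncut cells remained, in which cdh1 had at most 4.09 UPM. The Twist genes then had 418 UPM in cycling and 729 in other cut cells (log2 ratio -0.80, -1.24 to -0.39) and 388 and 587 in uncut cells (-0.60, -0.82 to -0.37). The Prrx1 genes had log2 ratios of -0.33 (-0.70 to 0.03) and -0.18 (-0.36 to 0.003). The lower level of the Twist genes in cycling cells, in UPM, thus held in both libraries at a smaller size. All cells of cluster 12 were still among the others. Cycling cells were again deeper, with medians of 18775.5 against 11436.5 UMIs in uncut and 8251 against 7547 in cut cells. Both families together had 512 UMIs in the 26 cycling and 2216 in the 144 other uncut cells. In the cut library they had 145 in 13 and 510 in 43 cells. Per cell these UMIs were thus no fewer in uncut cycling cells, and the lower level is one of UPM only. The intervals of the Prrx1 sum then included 0, while those of prrx1a alone, given below, did not.

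**Figure D4:**
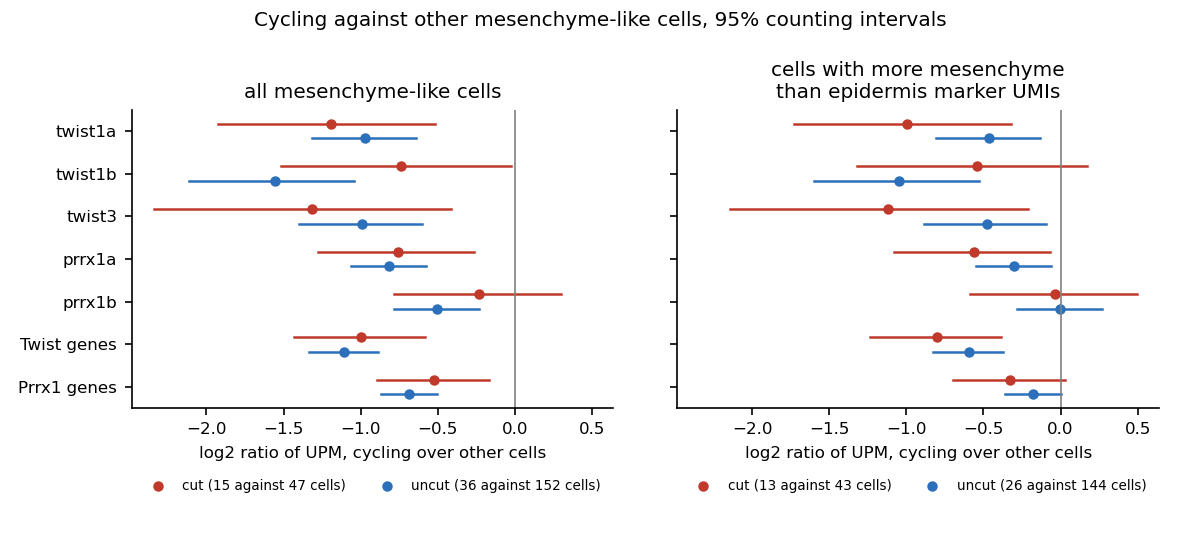
Log2 ratio of UPM of cycling over other mesenchyme-like cells (horizontal axis) for 5 genes and the 2 families (rows), cut in red and uncut in blue, with 95% counting intervals, for all mesenchyme-like cells (left) and without the 24 cells with epidermis markers (right). On the right the points move towards 0, prrx1b lies at -0.03 and -0.005, and the Twist sums stay at -0.80 and -0.60.

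Among these cells twist1b had 149 UPM in cycling and 217 in other cut cells (log2 ratio -0.54, -1.32 to 0.17) and 69.4 and 143 in uncut cells (-1.05, -1.60 to -0.53). The log2 ratios of twist3 were -1.12 (-2.14 to -0.21) and -0.48 (-0.89 to -0.09), those of twist1a -0.99 (-1.73 to -0.32) and -0.46 (-0.80 to -0.13), and those of prrx1a -0.56 (-1.08 to -0.07) and -0.30 (-0.55 to -0.06). All 4 were lower in cycling cells of both libraries, with 0 inside the interval for twist1b in the cut library. The level of prrx1b was 297 and 305 UPM in cut and 281 and 282 UPM in uncut cells, and its log2 ratios were -0.03 (-0.59 to 0.50) and -0.005 (-0.28 to 0.27). Of the 5 members 1 was at least 2-fold lower in each library, twist3 in cut and twist1b in uncut cells. Over all genes 13% of 942 were lower and 9.34% higher in the cut library, and 8.94% of 3212 lower and 10% higher in the uncut library, so that the members' count is near the background.

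Pooled over the clusters, mesenchyme markers and tyrosine catabolism genes were also lower in cycling cells. The mesenchyme markers together had 9807 UPM in cycling and 35470 in other cut cells, and 21484 and 42286 UPM in uncut cells. All cells of cluster 12, with 103990 UPM of these markers, were among the other cells. Within cluster 5 the markers went the other way. They had 17134 UPM in cycling and 13490 in other cut cells, and 52455 and 26494 UPM in uncut cells. Of the 8 tyrosine catabolism genes with enough UMIs, 6 were at least 2-fold lower in uncut cycling cells, among them pah, which starts the pathway, with 67.4 and 830.5 UPM. In cut cells 4 of 8 were, with a median log2 ratio of -0.70 over the list. Of the 2 EMT factors with enough UMIs in the uncut library, snai1a had a log2 ratio of -3.12 (-6.20 to -1.20) and snai2 of -1.07 (-1.84 to -0.37). The E protein gene tcf12 had 236 and 245 UPM in uncut cells (-0.06, -0.36 to 0.24) and 106 and 237 UPM in cut cells (-1.16, -2.06 to -0.35). The median log2 ratio of the members was -0.56 in the cut and -0.46 in the uncut library, against 0.03 and 0.14 over all genes. Within cluster 5, 5 cells per library were cycling, and the 6 genes together had log2 ratios of -0.47 and -0.46. These ratios rest on only 29 UMIs in the cycling cut cells and 75 in the cycling uncut cells. Most cycling cells, 41 of 51, were in cluster 13. There the 6 genes had 438 UMIs in 31 cycling and 158 in 12 other uncut cells, at median depths of 20610 and 16292 UMIs. In its cut cells they had 116 UMIs in 10 cycling and 26 in 3 other cells. Per cell these UMIs were no fewer in cycling cells of cluster 13, with few other cells to compare.

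Between cut and uncut mesenchyme-like cells the members differed little in level. The log2 ratio of cut over uncut was 0.07 (-0.16 to 0.29) for prrx1a, 0.13 (-0.14 to 0.39) for prrx1b, 0.22 (-0.07 to 0.50) for twist1a, -0.10 (-0.48 to 0.26) for twist3 and 0.80 (-0.41 to 1.89) for twist2. For twist1b it was 0.67 (0.32 to 1.01), or 1.59-fold. None of the 5 members with at least 50 UMIs, 0 in all, was past 2-fold, where 4.44% of 4324 genes were higher and 3.03% lower. The median of the members was 0.13, against 0.12 over all genes. At 2000 UMIs per cell twist1b was in 27.9% (17.1 to 40.8) of cut and 21.3% (15.7 to 27.8) of uncut cells, with overlapping intervals, and prrx1a in 45.9% (33.1 to 59.2) and 43.1% (35.9 to 50.5). The difference of twist1b is the size of 1 library against another, with no replicate to show how far 2 libraries of 1 condition would differ.

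**Figure D5:**
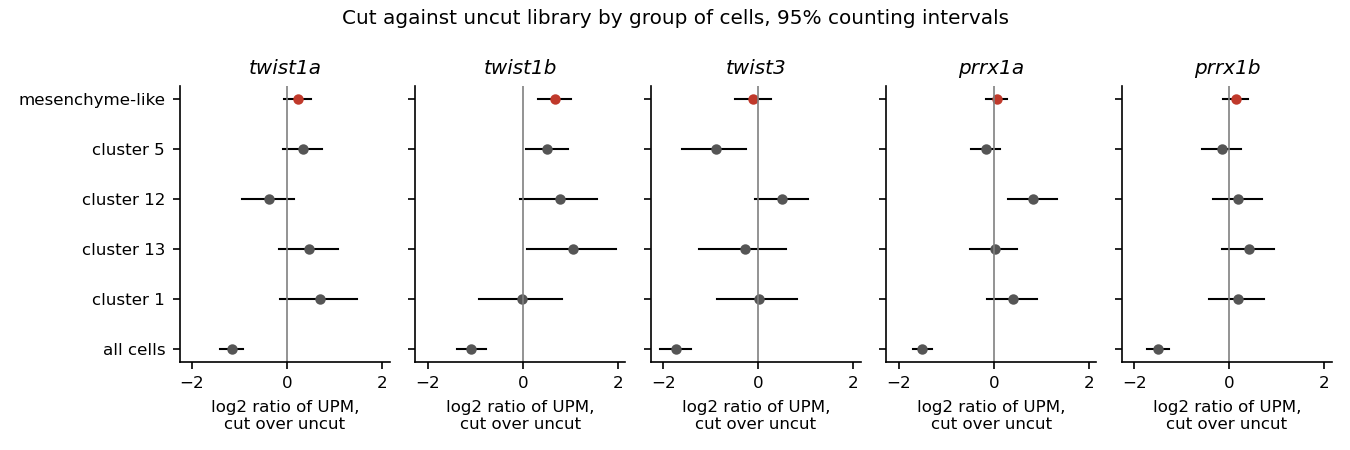
Log2 ratio of UPM, cut over uncut (horizontal axis), for 5 genes (panels) in mesenchyme-like cells (red), in each cluster with mesenchyme markers raised and in all cells (grey), with lines for the 95% counting intervals. In mesenchyme-like cells the ratios lie between -0.10 and 0.67, and over all cells between -1.73 and -1.08.

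By cluster the ratio of twist1b was 0.52 (0.07 to 0.94) in cluster 5, 0.78 (-0.05 to 1.56) in cluster 12, 1.06 (0.09 to 1.96) in cluster 13 and -0.01 (-0.92 to 0.82) in cluster 1. It was above 0 in all 3 mesenchyme-like clusters. The ratio of twist3 was -0.89 (-1.60 to -0.25) in cluster 5 and 0.50 (-0.07 to 1.05) in cluster 12, with opposite signs. That of prrx1a was 0.82 (0.30 to 1.33) in cluster 12 and -0.16 (-0.47 to 0.14) in cluster 5. For twist1a it was -0.39 (-0.95 to 0.14) in cluster 12. There twist1a was in 31.25% of cut and 81.8% of uncut cells, at median depths of 3966 and 6429.5 UMIs. The 4 Twist genes together had a pooled ratio of 0.27 (0.08 to 0.45), but the mean over cells of each cell's own UPM gave -0.02, so that the sign of the sum depends on the weight of deep cells, and for twist1a the same mean gave -0.19. For twist1b that mean gave 0.65.

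Some partners and related genes were past 2-fold between the libraries in mesenchyme-like cells, where 4.44% of 4324 genes were higher and 3.03% lower. Of the E protein genes, tcf3b had 153 UPM in cut and 88.9 in uncut mesenchyme-like cells (log2 ratio 0.78, 0.41 to 1.15) and tcf12 had 177 and 216 (-0.29, -0.62 to 0.02). Of the 3 Id genes with enough UMIs, id3 was at least 2-fold higher in cut cells, with 173 and 74.6 UPM (1.22, 0.85 to 1.58), and id2a had 164 and 84.3 UPM (0.96, 0.59 to 1.32). The most abundant of them, id1, had 950 and 800 UPM. Of 12 fin fold factors 2 were at least 2-fold higher, foxc1b with 67.5 and 22.9 UPM and meox1 with 71.1 and 18.6 UPM, and 1 lower, tbx18 with 4 and 80 UMIs. Of 10 genes tied to Twist or Prrx1 in other systems 4 were higher, among them fn1b, a fibronectin gene, with 217 and 58.6 UPM (1.89, 1.53 to 2.24), tnc, which encodes tenascin C, with 197 and 98.2 UPM, and fgf10a, a growth factor gene of limb and fin mesenchyme, with 82.1 and 22.9 UPM. The other was cdh1, with 80.2 and 38.4 UPM, which is also the epithelial gene of the cells with epidermis markers. Several of these differences rest in part on 1 cut cell: 63 of the 119 fn1b UMIs were in a single cell of cluster 13. In that cluster fn1b had 513 UPM in cut and 26.8 in uncut cells, and in cluster 5 it had 49.5 and 77.3. In cluster 12 it had 193 and 63.8 UPM, from 19 and 22 UMIs, and in cluster 1 it had 240 and 98.7 UPM. Without the cut cell with the most UMIs of the gene, the log2 ratio was 0.86 for fn1b, 0.73 for tnc, 0.36 for cdh1 and 0.95 for id3, which are no longer past 2-fold, and 1.26 for fgf10a, 1.13 for foxc1b and 1.53 for meox1, which are. For twist1b it was 0.53 (0.16 to 0.89). Only the cut side loses a cell here, which lowers these ratios, and tnc and cdh1 were only just past 2-fold before. aldh1a2, which makes retinoic acid, had 38 UMIs in cut and 10 in uncut cells, under the minimum of 50. EMT factors had 0 of 4 past 2-fold, with snai2 at 93 and 60.6 UPM and zeb1b at 18.2 and 17.1.

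Over all cells of each library the Twist and Prrx1 genes had a lower level in the cut library. The log2 ratio was -1.50 (-1.70 to -1.30) for prrx1a, with 36.1 UPM in cut and 102 in uncut cells, and -1.49 (-1.73 to -1.26) for prrx1b. It was -1.73 (-2.06 to -1.41) for twist3, -1.17 (-1.42 to -0.92) for twist1a, -1.08 (-1.39 to -0.77) for twist1b and -0.80 (-1.89 to 0.20) for twist2. All 5 members with at least 50 UMIs were at least 2-fold lower, where 7.7% of 8401 genes were lower and 2.4% higher. Beside this, mesenchyme-like cells were 8.14% (6.29 to 10.3) of the cut and 21.4% (18.7 to 24.3) of the uncut cells, and the 4 clusters together 13.5% (11.2 to 16.2) and 33.5% (30.4 to 36.7). Of the 11 mesenchyme markers 10 were at least 2-fold lower over all cells and 0 in mesenchyme-like cells. How many cells of a type a dissociation releases and how many the tissue holds cannot be told apart here.

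In comparison with all cells outside the 4 clusters, the partners were less restricted to the mesenchyme-like cells than the members. Over all 8343 genes of this comparison 21.5% were at least 2-fold higher in mesenchyme-like cells and 23.8% lower. tcf12 was higher by 3.88 (3.64 to 4.11) on the log2 scale, with 209 and 14.3 UPM, and tcf3b by 1.57 (1.36 to 1.78), with 100 and 33.8 UPM. Of the 4 Id genes with enough UMIs 0 were past 2-fold, and id1 had 827 UPM in mesenchyme-like and 630 UPM in the other cells. Of the EMT factors 3 of 4 were at least 2-fold higher, snai1a (3.39), snai2 (2.42) and zeb1b (3.90), and zeb2a had 0.82. Of 14 fin fold factors 11 were higher, such as zic1 (5.98), msx3 (5.05) and hoxa13a (3.89), and 1 was lower, msx2a, at -5.56 (-7.84 to -4.00) with 3 UMIs in mesenchyme-like cells. Of the 11 genes tied to the families 9 were higher, such as pdgfra (4.84) and cdh2 (2.11), and 1 lower, cdh1, at -2.77 (-3.02 to -2.53). The 8 tyrosine catabolism genes and the 3 lysyl oxidases with enough UMIs were all higher, such as hgd (5.87) and loxa (5.53). The gene loxa is also one of the mesenchyme markers whose raised level gave clusters 5 and 12 their name, and pdgfra is on the same marker list. Their higher level here is thus not separate from the naming. The hand2 gene, a Twist partner in other tissues, had 1 UMI in mesenchyme-like cells.

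Over the 21 clusters the gene most like each member with enough UMIs was another member. Pearson's r of log2(UPM + 10), over clusters that share libraries and depth, among 5173 genes with at least 200 UMIs, was 0.980 for twist3 and prrx1b, 0.976 for twist1b and prrx1b, 0.963 for twist1a and twist3 and 0.951 for prrx1a and prrx1b, and each of these was the first-ranked gene of the member. After twist3, twist1a was most like c1qtnf5 (0.962), fgfrl1b (0.961), hgd (0.956) and dcn (0.955), all ahead of the other members, of which prrx1b ranked 9, prrx1a 17 and twist1b 26. The list of twist1b held prrx1b, twist3 (0.952), rbp5 (0.945), pcbd1 (0.942) and prrx1a (0.939). That of twist3 held prrx1b, then hgd (0.973), twist1a, fmoda (0.960) and mab21l2 (0.957). That of prrx1a held prrx1b, sfrp2 (0.949), si:ch1073-291c23.2 (0.945), pcbd1 (0.942) and twist1b (0.939), and that of prrx1b held twist3, twist1b, hgd (0.957), pax9 (0.955) and pcbd1 (0.955). The gene hgd encodes homogentisate dioxygenase and pcbd1 a cofactor recycling enzyme of phenylalanine hydroxylation, both of tyrosine catabolism, dcn and fmoda encode small leucine-rich matrix proteoglycans, and sfrp2 a secreted Wnt antagonist. twist2, with 43 UMIs, was under the minimum of 100 UMIs for such a list. With a pseudocount of 1 in place of 10 UPM, 11 of the 25 named places kept their gene, so that the lists below the first ranks depend on it. Each member had few UMIs in most clusters without mesenchyme markers raised. The correlation thus follows mainly the contrast between those and the mesenchyme clusters, and says little of patterns within mesenchyme.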

How the data were processed

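Single-cell libraries were made with the Chromium Single Cell 3′ chemistry from cut and uncut fin folds, 1 library per condition. Per the labels and the methods, the authors aligned the reads to danRer11 with Cell Ranger 3.1.0 and deposited UMI counts per gene and cell, without normalization, for each library and for both aggregated. The options of the aggregation and the gene annotation are not given in the sources used here. The aggregated counts were used, in which the cut library kept 95.3% of the 7376980 UMIs of its own matrix and the uncut library all. The median of 7212 UMIs per cut cell against 10476.5 per uncut cell limits what a share of cells can show, so shares were also taken after each cell was thinned at random to 2000 UMIs, with shallower cells left out.

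Cells were clustered with Scanpy 1.11.5 and leidenalg 0.10.2 (10 principal components, 15 neighbours, resolution 1) without the 6 genes, the G2/M genes and the DNA synthesis genes, and 15 of 21 clusters were named. A cluster took the name of the class with the largest share of its markers raised (log2 ratio of at least 0.5 and found in 25% of its cells, at least 3 markers). It stayed without a name where its 10 leading genes held more markers of another class, or where they held none of its own and its median depth was under the median of all cells divided by 3. Of 133 markers in 15 classes 120 were in the files. The classes were rebuilt here and may differ from those of the study. Scrublet called 0 cut and 5 uncut cells doublets, which is too few to show that the caller worked. No gene with a mitochondrial name was listed, so that cell damage was not gauged. Levels are UMIs per 1000000 UMIs of a group of cells (UPM), with exact Poisson intervals, and shares have exact Clopper-Pearson intervals. Ratios have conditional counting intervals, and genes with at least 50 UMIs over the 2 groups were counted as past 2-fold or not. A share of 0 allows 3 counts. The scripts were tested on simulated data.

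The genes named are the 6 members, the lists of partners, inhibitors and related genes, and for each member with at least 100 UMIs the 5 genes most alike. The members and lists were chosen with earlier results of these data known. All 6 names were found in the files. The RefSeq synonyms of twist1a and twist1b, and of twist2 and twist3, are exchanged in the reference table, and the names of the files were kept. A comparison of the member proteins was planned and not run. The alternatives were resolutions of 0.5 and 2, clustering with the members kept, naming by the share of markers, separate matrices, called doublets removed, cells of at least 3000 UMIs, thinning to 4000 UMIs, other rules for cycling cells, means over cells and a minimum of 20 UMIs. Those on cluster 1, on mesenchyme and epidermis markers, without cluster 13 and without the cut cell with the most UMIs of a gene were chosen after seeing the data.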

Additional observations from a re-analysis of the deposited data

How the results depend on the processing

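No paired analysis was possible because each condition has 1 library and no result comes from a test. Of the 122 values of the main results under an alternative, 104 moved by less than the counting error, 17 moved by more and 1 changed sign. Of the 353 values for single genes and lists these counts were 309, 43 and 1. With the mean over cells in place of pooled UMIs, the log2 ratio of the Twist genes, cut over uncut, was -0.023. For cycling over other uncut cells, the log2 ratio at resolution 0.5 was -0.55 for the Twist and -0.17 for the Prrx1 genes, and without the cells with epidermis markers it was -0.60 and -0.18. For the Prrx1 genes it was -0.49 with at least 2 G2/M genes, -0.39 with G2/M or DNA synthesis genes and -0.15 without cluster 13, where prrx1b changed sign to 0.50 (-0.05 to 1.004). With the members and division genes kept in the clustering, the ratios in cut cells were -1.54 and -1.06. Among cells with at least 3 mesenchyme markers, 93.0% of uncut cells had a Twist gene, 89.0% a Prrx1 gene and 85.5% both. Among cells with more mesenchyme than epidermis marker UMIs these shares were 94.7%, 89.4% and 86.5%, and 92.9% of cut cells had a Prrx1 gene. Over the 4 clusters 71.4% of uncut cells had both. The cut over uncut log2 ratio of twist1b lay between 0.52 and 0.74 over its alternatives. With 62 cut mesenchyme-like cells and 12 cut UMIs of twist2, differences of that gene were not detectable at this depth.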

Other observations

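A group of 25 cells outside the 4 clusters carried 2 or more of the 6 genes, and 17 of them had UMIs of at least 3 mesenchyme markers. Of these cells 18 were in cluster 14, which was led by hist1h4l, dut, tuba1b, stmn1a, rrm2 and pcna, genes of histones, nucleotide synthesis, tubulin and DNA replication, with 3031 UMIs in its median cell. In cluster 20, which was led by gfap and the ciliary genes foxj1a, daw1 and enkur, prrx1a had 6 UMIs in 1 of 19 cells. In muscle-like cells prrx1a had 4 UMIs, each in a different cell of the 12.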
